A study of Mus musculus with 20 samples.

Results

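The comparison described here set 5 cultures of mouse embryonic fibroblasts kept with serum of irradiated mice against 5 kept with serum of non-irradiated mice, both of the 10-day set, 10 of the 20 arrays of the series. The members were defined by their sample titles, and were chosen with earlier results of these data known. Mouse embryonic fibroblasts are connective tissue cells grown out of mouse embryos. The culture with mouse serum lasted 24 hours. The serum donors were female mice of the inbred strain C3H/HeN, and they had received either 0 Gy (control serum) or 4 Gy under a regime that the labels write as L/MDR and do not expand (4 Gy serum). What the 10 days refer to is not stated in the labels, and they give no age for the mice and no strain for the fibroblasts. Nothing in them says that replicate arrays stand for separate cultures or separate donor mice, so a p-value here measures the spread among arrays and no more, and that spread may be technical. The other 10 arrays form a 20-day set with its own control serum and 8 Gy serum, and enter here through the shared estimate of the spread and through the detection filter, which kept a probe detected throughout any of the 4 groups.

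Serum carries cytokines, hormones, lipids and metal-binding proteins, and fibroblasts respond to it with changes in growth, matrix and inflammatory genes. Acute phase proteins, such as the serum amyloid A proteins and lipocalin 2, are made in quantity during inflammation. Their genes are switched on by interleukin 1, interleukin 6 and tumour necrosis factor through the transcription factors NF-kB, STAT3 and C/EBP, in the liver and also in fibroblasts. Metallothioneins bind zinc and copper, and their genes respond to metals, glucocorticoids and inflammation.

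One-colour Agilent arrays were used, with 1 sample per array. Levels are log2 intensities minus the 75th percentile of the array, so that 0 is the level of that percentile and a difference of 1 is 2-fold. Between 25075 and 27662 of 41174 probes were well above background on an array, 0 spots were saturated, and the 75th percentile ranged from 969 to 1464 intensity units. Arrays were printed in groups on glass slides, and the layout was uneven. Slide 1 held control arrays 1 to 4, slide 2 held control array 5 with irradiated arrays 1 and 2, and slide 3 held irradiated arrays 3 to 5. A change within a slide can therefore be measured on slide 2 alone, as 2 irradiated arrays against 1 control array, and outside slide 2 the serum and the slide cannot be told apart. The 75th percentile was 1340 ± 109 (SD, n = 4 arrays) on slide 1 and 1053 ± 103 (SD, n = 3) on slide 3, and on slide 2 it was 1217 for the control array and 1157 and 1204 for the irradiated arrays. Signals of added spike-in RNA, relative to that percentile, lay between 0.20 and 0.26 on slide 3 and between −0.17 and 0.03 on the arrays of slides 1 and 2. The part that these differences play in the results below was not tested.

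With 4 Gy serum 911 of 20224 genes were higher and 297 lower than with control serum at an adjusted p under 0.05 (limma, Benjamini-Hochberg adjustment over all genes), which is 5.97% of the genes tested, 4.5% upward and 1.47% downward. The increases were the larger changes, with a median log2 change of 0.90 and 354 genes at 2-fold or more, against a median of −0.44 and 10 genes at 2-fold or more among the decreases. With the slide as a random block in the fit 0 genes rose and 1 fell. As a fixed block the slide leaves only the change within slide 2, described below. Under scaling to the array median in place of the 75th percentile, which moved the median of all genes by −0.07, 769 genes rose and 594 fell, so that the share of increases was 56.4% and not 75.4%. With quantile normalisation it was 62.1%. The count depended on slide 3: without its 3 arrays 0 genes passed in limma (709 at an unadjusted p under 0.05, against 4468 with all arrays), and without the 3 arrays of slide 2 there were 3754. Without irradiated array 3, 4 or 5 alone, 219, 224 and 319 genes passed, and without control array 1, 2, 3 or 4 alone 540, 325, 510 and 677. More passed without an array of slide 2: 1441 without control array 5 and 2003 and 2109 without irradiated array 1 or 2.

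The called genes followed the slides in steps. Their median level relative to the mean of the slide 1 control arrays was, for the genes that rose, between −0.09 and 0.08 on the 4 control arrays of slide 1, then 0.58 on control array 5, 0.58 and 0.66 on irradiated arrays 1 and 2, and 1.30, 1.35 and 1.18 on irradiated arrays 3 to 5. Control array 5 thus stood with the irradiated arrays of its slide and not with the other control arrays. For the genes that fell the corresponding medians were −0.05 on control array 5, −0.32 and −0.17 on irradiated arrays 1 and 2, and −0.57, −0.60 and −0.54 on irradiated arrays 3 to 5, so that here control array 5 stood with the control arrays of slide 1. Within slide 2, 532 of 910 genes that rose and 267 of 297 that fell had the same sign of change as over all arrays, and 76 and 137 of them reached at least 50% of its size. These genes were called with the arrays of slide 2 in the fit, so the counts are a description and not a second test. The share of equal signs over all genes was not counted.

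**Figure D1:**
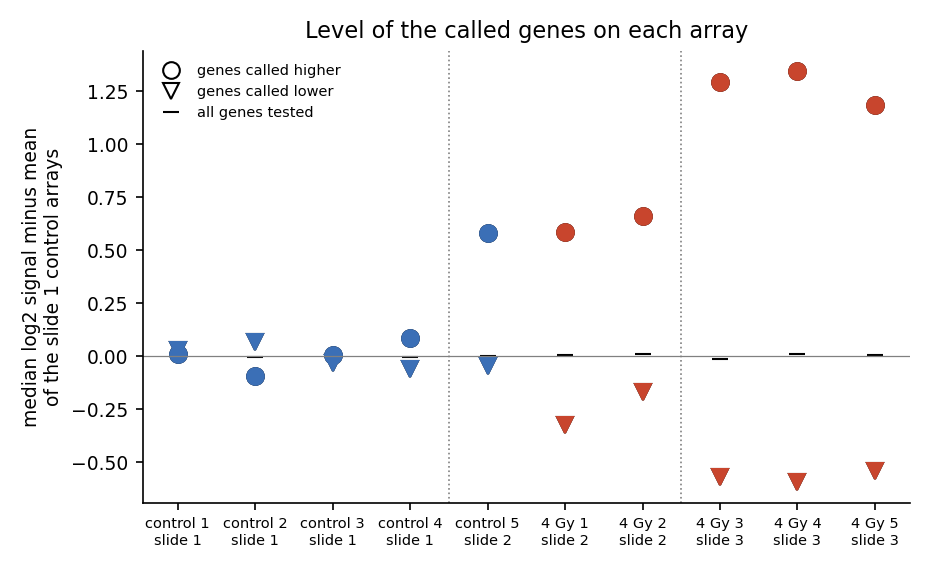
Median log2 level of the genes called higher (circles), called lower (triangles) and of all genes tested (dashes) on each array, relative to the mean of the 4 control arrays of slide 1, in blue for control serum and red for 4 Gy serum, with dotted lines between slides. The genes called higher stand at 0.58 on the control array of slide 2 and at 0.58 and 0.66 on its irradiated arrays, while those called lower separate these arrays (−0.05 against −0.32 and −0.17).

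The whole profiles were ordered in the same way. The first principal component of the 18625 genes well above background on all 10 arrays held 57.1% of the variance and placed slide 1 between −29.1 and −21.2, the 3 arrays of slide 2 between −1.31 and −0.73 and slide 3 between 31.5 and 36.0. Profiles on 1 slide but with different serum differed by a root mean square of 0.25 log2 units (median of 2 pairs), and those with the same serum on different slides by 0.34 (10 pairs). Within 1 group, 1195 genes were higher (5.91%) and 802 lower (3.97%) on slide 3 than on slide 2 among irradiated arrays, 9.87% of 20224. On control array 5, 419 were higher (2.07%) and 7 lower (0.0346%) than on the control arrays of slide 1, 2.11% of 20221.

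**Figure D2:**
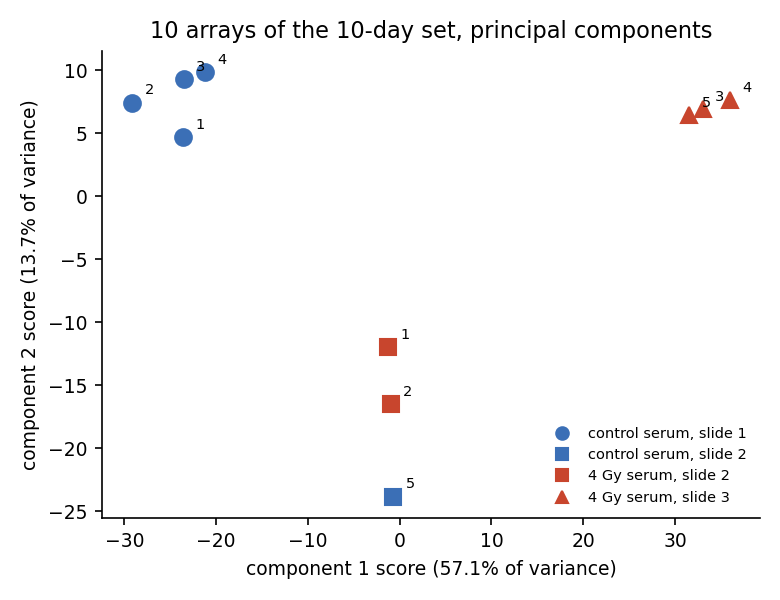
Scores of the 10 arrays on the first and second principal components of the log2 levels (57.1% and 13.7% of the variance), with colour for the serum, shape for the slide and the replicate number beside each point. The arrays form 3 clusters that match the slides, and control array 5 lies with irradiated arrays 1 and 2 near 0 on the first component.

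Acute phase genes made up the list with the highest median change among those with at least 5 members tested. Of 23 listed genes 15 passed the detection filter, of which 4 rose and 0 fell (26.7%, against 5.97% of all genes), and their median change was 0.94 against 0.00 for all genes. With the slide as a random block 0 of the 15 were called and the median was 0.56. That fit called 1 of all 20224 genes and 0 members of the other lists described here, so these counts do not set a list apart. The 4 were Saa1 (serum amyloid A), Serpina3n (a protease inhibitor), Itih4 (an inter-alpha-trypsin inhibitor chain) and Cd14 (the co-receptor for bacterial lipopolysaccharide). Under the 4 other scalings 3 or 4 members rose, and the median lay between 0.48 and 0.88. Within slide 2 the median change of the list was −0.03. Without the 3 arrays of slide 3 the median of the acute phase genes was 0.57 with 0 members called, as 0 of all genes were. Without the 3 of slide 2 it was 1.03 with 10 of 15 members called, where 3754 of all 20224 genes were. Hepatocyte markers, of the cells that make most acute phase protein in the body, were not well above background on any array for 8 of 12 genes, Alb, Apoa1 and Ttr among them, with a summed level of 0.0632 to 0.101 with control serum and 0.0995 to 0.152 with 4 Gy serum in multiples of the 75th percentile.

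The levels on single arrays show how unevenly these genes were expressed under 1 label. Saa1 (chromosome 7, 46740497 to 46743181 of GRCm38.p6) was at −2.91, −2.52, −1.74 and −2.97 on control arrays 1 to 4 and at 0.11 on control array 5, against −1.08 and −0.90 on irradiated arrays 1 and 2 and 0.43, 1.55 and 1.49 on irradiated arrays 3 to 5. Control array 5 was therefore higher than both irradiated arrays of its slide, and the groups overlapped. The means were −2.01 ± 1.28 and 0.30 ± 1.26 (SD, n = 5 each), and Saa1 rose by 2.31 ± 0.63 on the log2 scale (SE, limma adjusted p = 0.0361). Within slide 2 the change was −1.10 ± 0.77 (SE), and among irradiated arrays slide 3 was 2.15 above slide 2 (limma adjusted p = 0.0285). Fitted on the 10-day arrays alone, Saa1 had an adjusted p of 0.0565.

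Other acute phase genes were also uneven among the control arrays and did not pass the test. Saa3, a further serum amyloid A gene, was at −2.13, −0.49, 0.79, −2.57 and 1.86 on control arrays 1 to 5 and at 0.53, 0.68, 1.31, 2.52 and 2.53 on irradiated arrays 1 to 5, a change of 2.02 ± 0.74 (SE, adjusted p = 0.109). Lcn2, which encodes the iron-scavenging protein lipocalin 2, was at −6.40, −4.98, −3.59, −8.01 and −2.56 against −3.34, −3.58, −2.54, −1.78 and −1.63, a change of 2.53 ± 0.85 (adjusted p = 0.0848). Its probe was well above background on 3 of 5 control arrays. The values on control arrays 1 and 4 lie below the weakest signals well above background there (−5.97 and −6.85). The low values and the size of the change are therefore not measured exactly. In both Saa3 and Lcn2 the control arrays spanned more than 4 log2 units, and control array 5 was the highest control array and above both irradiated arrays of slide 2. Hp (haptoglobin, which binds free haemoglobin) and Steap4 (a metalloreductase), singled out after their values were seen, changed by 1.74 ± 0.60 (adjusted p = 0.0926) and 1.07 ± 0.40 (adjusted p = 0.117), with −1.15 and −0.53 within slide 2. Over the list, control array 5 was the highest control array for 11 of 15 genes (73.3%, against 30.8% of all genes) and control array 4 the lowest for 10 of 15 (66.7% against 20.5%).

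Serpina3n (chromosome 12, 104406646 to 104414334) separated the groups. Its level was −1.56, −1.57, −0.75, −2.36 and −0.52 on control arrays 1 to 5 and −0.32, −0.49, 0.35, 0.84 and 0.70 on irradiated arrays 1 to 5. Control array 5 lay just below both irradiated arrays of its slide, so the separation was narrow. The change was 1.57 ± 0.40 (SE, n = 5, adjusted p = 0.0275) over all arrays and 0.11 within slide 2. Itih4 did not overlap either, from −6.59 to −5.92 with control serum and from −5.87 to −4.49 with 4 Gy serum, a change of 1.17 ± 0.26 (adjusted p = 0.0147), and was well above background on 4 of 5 control arrays. Cd14 rose by 0.36 ± 0.10 (adjusted p = 0.0333), with 0.05 within slide 2. The cytokine genes that act upstream or beside these did not pass: Il6 (interleukin 6) was at −1.22, −0.26, −0.22, −0.93 and 0.59 with control serum and at −0.91, −0.31, −0.49, 0.30 and 0.63 with 4 Gy serum (adjusted p = 0.739), and Ccl2, a monocyte attractant, changed by 0.40 ± 0.27 (adjusted p = 0.419). Both were higher on control array 5 than on irradiated arrays 1 and 2.

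**Figure D3:**
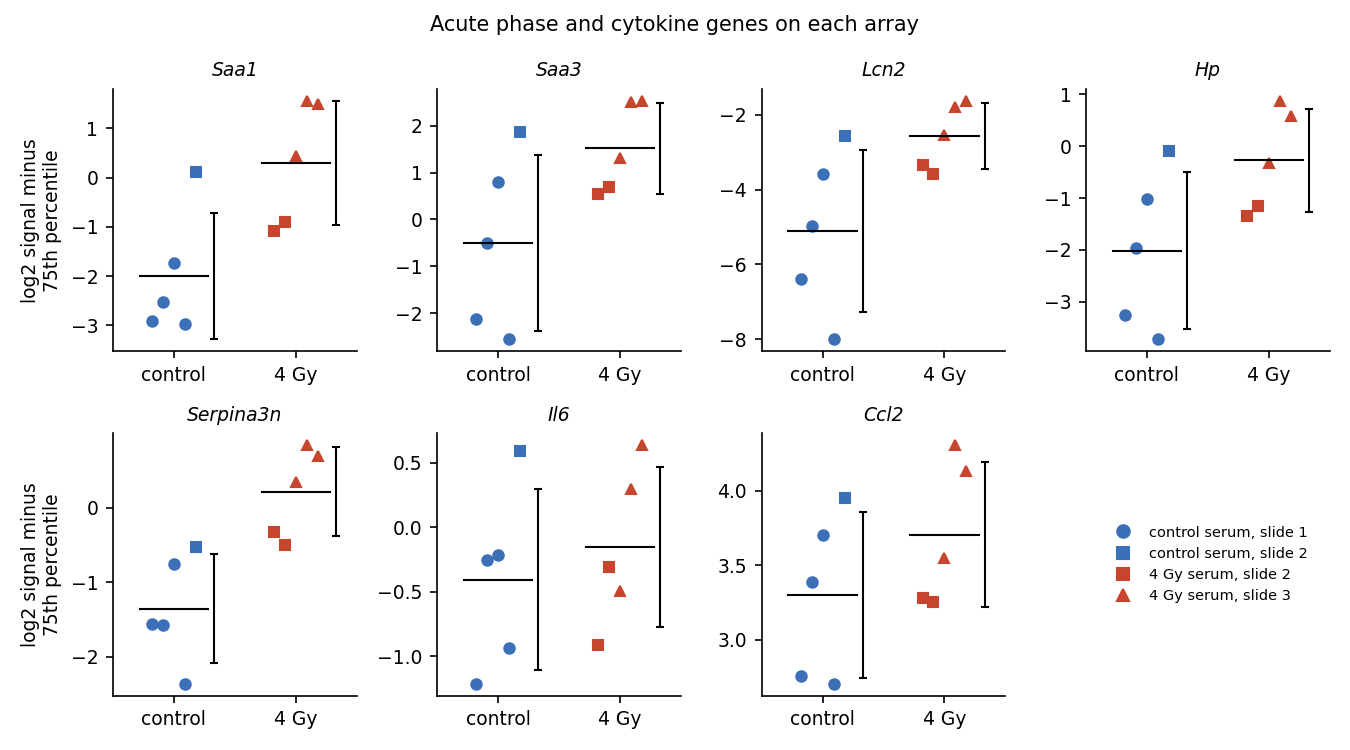
Log2 level of 7 acute phase and cytokine genes on each of the 5 control and 5 irradiated arrays, with shape for the slide, a horizontal line for the group mean and a bar beside it for ± 1 SD. Control array 5 (blue square) is above both irradiated arrays of slide 2 (red squares) for Saa1, Saa3, Lcn2, Hp, Il6 and Ccl2 and below both for Serpina3n.

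The 250 bases before the start were searched on both strands for 3 short motifs of the inflammatory factors named above. This was done for a chosen set of genes and not for the whole acute phase list. The set was Saa1, Saa2 (a further serum amyloid A gene), Saa3, Lcn2, Serpina3n, Itih4, Steap4 and Il6. Hp, Ccl2 and Cd14 were chosen too, but the RefSeq promoter table of GRCm38.p6 does not hold them. The letters were TTNNGCAA for C/EBP, present in 9.56% of 32851 promoters, GGG, any pair of bases and TTTCC for NF-kB, present in 1.41%, and TTCCNGGAA for STAT, present in 0.913%. Saa1, Saa2, Saa3, Lcn2, Steap4 and Il6 each held 1 match to the C/EBP letters. Serpina3n, Steap4 and Il6 each held 1 match to the NF-kB letters, Steap4 alone of these held the STAT letters, and Itih4 held none of the 3. The sequences of 3 genes whose windows lie wholly outside the annotated gene are given 5′ to 3′ on the strand of the gene. C/EBP and NF-kB matches are in capitals, to show how differently the matches are placed. The windows are chr2:32387740-32387989 (minus strand) for Lcn2, chr5:7960222-7960471 (plus) for Steap4 and chr5:30012864-30013113 (plus) for Il6.
Lcn2: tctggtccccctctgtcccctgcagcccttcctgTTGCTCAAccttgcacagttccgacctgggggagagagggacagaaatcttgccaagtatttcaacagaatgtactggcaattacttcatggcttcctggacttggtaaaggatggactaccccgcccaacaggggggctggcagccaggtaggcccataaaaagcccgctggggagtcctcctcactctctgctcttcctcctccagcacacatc
Steap4: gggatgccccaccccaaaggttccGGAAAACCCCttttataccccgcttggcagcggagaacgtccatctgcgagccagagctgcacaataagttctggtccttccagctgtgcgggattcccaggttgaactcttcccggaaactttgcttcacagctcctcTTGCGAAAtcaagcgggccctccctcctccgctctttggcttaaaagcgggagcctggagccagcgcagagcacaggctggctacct
Il6: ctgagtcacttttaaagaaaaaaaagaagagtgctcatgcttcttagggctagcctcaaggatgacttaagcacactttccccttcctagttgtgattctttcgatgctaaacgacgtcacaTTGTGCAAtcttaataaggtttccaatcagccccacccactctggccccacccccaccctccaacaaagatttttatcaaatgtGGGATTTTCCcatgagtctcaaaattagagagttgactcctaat
A C/EBP match begins at base 35 of the window in Lcn2, 164 in Steap4 and 123 in Il6, and an NF-kB match at base 25 in Steap4 and 207 in Il6. These are matches of letters in a reference sequence and do not show binding in these cells.

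Among metal and iron genes, 3 of 15 rose and 0 fell (20%, against 5.97% of all genes), with a median change of 0.12. With the slide as a random block 0 of them were called, where 1 of all 20224 genes was. Mt4, a metallothionein gene best known from stratified epithelia, was at −6.96, −5.64, −6.18, −5.68 and −4.86 on control arrays 1 to 5 and at −4.57, −4.45, −3.26, −3.38 and −3.46 on irradiated arrays 1 to 5. The groups did not overlap, control array 5 was the highest control array, and the gene was well above background on 4 of 5 control arrays. The change was 2.04 ± 0.40 (SE, n = 5, adjusted p = 0.0109), against 0.34 within slide 2, and with normexp background correction it was 0.68 (adjusted p = 0.0577). Trf, which encodes the iron carrier transferrin, rose by 1.09 ± 0.20 (adjusted p = 0.0105), and its change within slide 2 was −0.06. Mt3 rose by 0.31 ± 0.08 (adjusted p = 0.0278) and, unlike the others, its change within slide 2 was as large, 0.31. The 2 metallothionein genes that fibroblasts express strongly did not pass: Mt1 ranged from 2.51 to 3.00 with control serum and from 2.86 to 3.57 with 4 Gy serum (adjusted p = 0.0544, but 0.0399 on the 10-day arrays alone and called under 3 of the 4 other scalings), and Mt2 from 5.36 to 6.07 and from 5.83 to 6.34 (adjusted p = 0.394). The iron storage gene Fth1 (−0.03) and the haem oxygenase gene Hmox1 (−0.03) were level. With slide 3 left out the list had 0 called members, as 0 of all genes were called.

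The genes with the largest changes among those well above background on all 10 arrays were mostly dim. Behind Saa1, the increases were led by Ly6g6c (1.80), a gene of the Ly6 family, and Cyp4f18 (1.74), a cytochrome P450 gene. Cyp4f18 was between −5.77 and −5.51 on slide 1, at −4.69, −4.93 and −5.00 on slide 2 and at −2.36, −3.25 and −3.12 on slide 3. The placental prolactin-family gene Prl3b1 (1.66), Tmem174 (1.54), 1700019N19Rik (1.53), Foxh1 (1.52), a transcription factor of nodal signalling, and the olfactory receptor genes Olfr1153 (1.52) and Olfr1342 (1.51) had the same order of slides. Foxh1 was at −0.78, −1.03, −0.97 and −0.78 on slide 1, at 0.27, 0.16 and 0.12 on slide 2 and at 1.46, 1.38 and 1.19 on slide 3. Slide 2 thus lay between the others whichever serum its arrays carried. For these 8 genes besides Saa1 and Serpina3n the changes within slide 2 lay between −0.27 and 0.17, against 1.51 to 1.80 over all arrays. Among genes below background on some arrays, Ly6f was at least 2.14-fold higher (control arrays −8.67 to −6.13, irradiated arrays −6.17 to −4.62). Terc, the RNA template of telomerase, was between −7.49 and −6.13 on slide 1 and between −4.49 and −4.26 on slide 3, with −5.99 on control array 5 and −5.57 and −5.66 beside it (change 1.70 ± 0.37, adjusted p = 0.0142). With normexp background correction several of these weak genes changed less: Ly6g6c by 1.00, Cyp4f18 by 0.77, Prl3b1 by 0.90, Tmem174 by 0.89, 1700019N19Rik by 0.53, Olfr1153 by 0.59, Olfr1342 by 0.54 and Ly6f by 0.33, all still called, and Terc by 0.34, no longer called.

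Dpf1 led the decreases that followed the slides. This gene of a chromatin remodelling subunit was at 3.15, 3.13 and 2.51 on control arrays 1 to 3 (its spot on array 4 was left out) and at 1.33 on control array 5, against 1.53 and 1.08 on irradiated arrays 1 and 2 and −1.27, −1.29 and −1.37 on irradiated arrays 3 to 5. It changed by −0.03 within slide 2, against −2.80 ± 0.53 over all arrays (n = 4 and 5, adjusted p = 0.0105). Olfr1410 (−2.34, measured on 4 control arrays), Kcnc4 (−1.33), a potassium channel gene, Pacs1 (−0.93), a sorting protein gene, and Hoxc5 (−0.82), a homeobox gene, fell as well. For Olfr1410 and Pacs1 control array 4, at −3.71 and −0.45, lay among the irradiated arrays. In limma on the 10-day arrays alone these 2 genes had an adjusted p of 0.0969 and 0.0792. Kcnc4 ranged from −3.68 to −2.87 with control serum and from −5.43 to −3.72 with 4 Gy serum, and Hoxc5 from −2.61 to −1.92 and from −3.34 to −2.70, neither overlapping. Their changes within slide 2 were −0.35 and −0.18. The other probe of Pacs1 gave −0.01, where the probe used gave −0.93. Other genes among the 10 lowest were Rbm3 (−0.70), a cold-inducible RNA-binding gene, Rbmxl2 (−0.66), Eif4e3 (−0.64), a cap-binding protein gene, Npnt (−0.61), which encodes the matrix protein nephronectin, Mical2 (−0.60), an actin oxidase gene, Celf4 (−0.59), an RNA-binding gene, and Dnajc2 (−0.55), a ribosome-associated chaperone gene. Within slide 2 Rbm3 changed by −0.58 and Mical2 by −0.71, close to their changes over all arrays, and Npnt and Dnajc2 by 0.08 and 0.02. The second probes of Eif4e3 and Dnajc2 gave 0.05 and −0.05. Over the 4 other scalings the smallest changes were −0.35 for Rbm3, −0.39 for Npnt and −0.49 for Mical2, each not called there, and −0.63 for Kcnc4 and −0.39 for Rbmxl2, both called.

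For a smaller set of genes the change on slide 2 had the sign of the change over all arrays and much of its size. Of the called genes, 311 that rose and 148 that fell had groups that did not overlap (over all genes tested, 4.28% lay without overlap higher and 3.62% lower with 4 Gy serum). Of these, 43 and 69 also had a change within slide 2 of the same sign and at least 50% of the size, a share that was not counted over all genes. The choice of these genes used the change within slide 2, so their values there are a description and not a second test, and of them only Opn1mw passed the test within slide 2. Vegfa (chromosome 17, 46016993 to 46032377), the angiogenic growth factor gene, was at 2.19, 2.45, 2.26, 2.52 and 2.27 with control serum and at 1.97, 2.10, 1.92, 1.88 and 2.06 with 4 Gy serum. The groups did not overlap, and the irradiated arrays of slides 2 and 3 differed by −0.08. Its change was −0.35 ± 0.08 (SE, n = 5, adjusted p = 0.0171), the change within slide 2 was −0.24, and the 3 other probes of the gene gave −0.22, −0.34 and −0.23.

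Mafg, a small MAF protein that partners NRF2, was at 1.85, 1.97, 1.86, 1.86 and 1.75 with control serum and at 1.51, 1.46, 1.49, 1.43 and 1.51 with 4 Gy serum, a change of −0.38 ± 0.09 (SE, adjusted p = 0.018). Fgd3, an exchange factor gene for the small GTPase Cdc42, was at −3.51, −3.38, −3.49, −3.16 and −3.44 against −4.04, −3.81, −4.18, −3.85 and −3.81, a change of −0.54 ± 0.10 (adjusted p = 0.0105). In both genes the irradiated arrays of slides 2 and 3 differed by −0.01 and −0.02, and the gap to control array 5 was −0.27 and −0.49. Pds5a, a cohesin regulator gene, fell by 0.41 on the log2 scale, with control arrays from −1.92 to −1.73 and irradiated arrays from −2.29 to −2.09. Tbc1d16 (−0.42), a GTPase-activating protein gene, Plekha5 (−0.46) and Map3k1 (−0.32), a kinase gene upstream of JNK, did likewise with changes of −0.23, −0.29 and −0.16 within slide 2. The second probe of Plekha5 gave −0.09.

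Opn1mw (chromosome X, 74127466 to 74150756), the gene of the medium-wave cone opsin, had the lowest change of the named genes, with at least 3.05-fold lower signal with 4 Gy serum. It was at −4.62, −5.70, −5.48 and −5.92 on the control arrays of slide 1 and at −2.58 on control array 5, and between −8.69 and −7.55 on the irradiated arrays, where its probe was not well above background on any of 5. Control array 5 was 2.85 above the mean of the other control arrays. The adjusted p was 0.0083, and with the irradiated arrays at background the fitted changes are not exact. With normexp background correction the change was −0.59 and was not called.

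**Figure D4:**
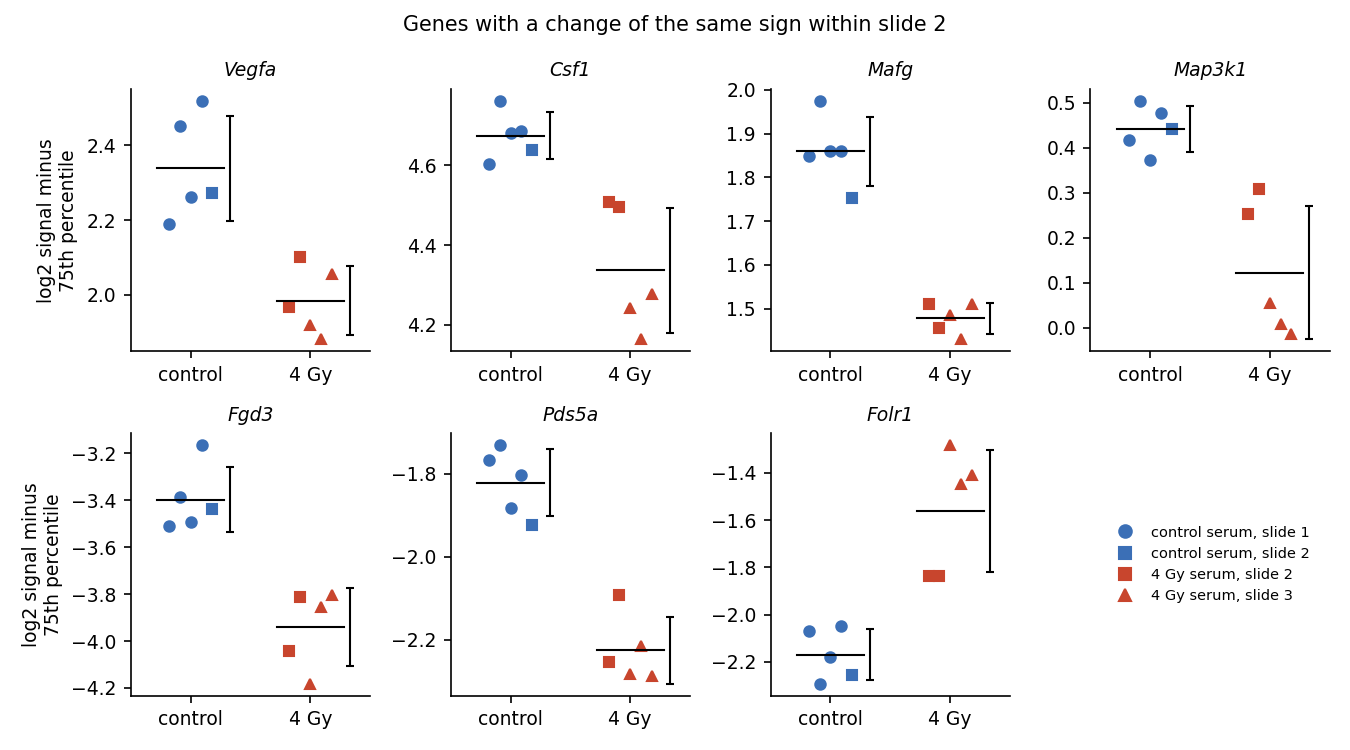
Log2 level of 7 genes whose groups did not overlap and whose change within slide 2 had the sign of the change over all arrays, on each of the 5 control and 5 irradiated arrays, with shape for the slide, a horizontal line for the group mean and a bar for ± 1 SD. For Vegfa, Mafg, Fgd3 and Pds5a the irradiated arrays of slides 2 and 3 lie together, while for Csf1, Map3k1 and Folr1 slide 3 is farther from the control arrays than slide 2.

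Of the 8 named genes that rose and met the same conditions, 6 were below background on some control arrays. Folr1 (chromosome 7, 101858331 to 101870788), the folate receptor gene, was well above background on all 10 arrays, as was Myh4. Folr1 was at −2.07, −2.29, −2.18, −2.05 and −2.26 with control serum and at −1.84, −1.84, −1.28, −1.45 and −1.41 with 4 Gy serum, a change of 0.61 ± 0.12 (SE, n = 5, adjusted p = 0.0115), and the other probe gave 0.29. The groups did not overlap, and slide 3 stood above slide 2 by 0.46. Myh4, a fast skeletal myosin gene, was between −5.59 and −5.29 with control serum and between −4.98 and −4.29 with 4 Gy serum (0.94 ± 0.19, adjusted p = 0.0115, 0.67 within slide 2). Adora3, the adenosine A3 receptor gene, was at least 1.67-fold higher and Tnfsf14, the gene of the tumour necrosis factor family ligand LIGHT, at least 1.06-fold. Neither was well above background on any control array, and Tnfsf14 was so on 3 of 5 irradiated arrays. Ms4a4b (1.02) and Hk3 (1.13), a hexokinase gene, were well above background on 2 of 5 control arrays, and Ak8 (0.76), an adenylate kinase gene, and Slc6a12 (0.83), a betaine transporter gene, on 3 of 5. With normexp background correction the changes were 0.25 for Adora3, still called, and 0.20 for Myh4, 0.19 for Ms4a4b, 0.17 for Hk3, 0.16 for Tnfsf14, 0.11 for Ak8 and 0.16 for Slc6a12, not called.

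**Figure D5:**
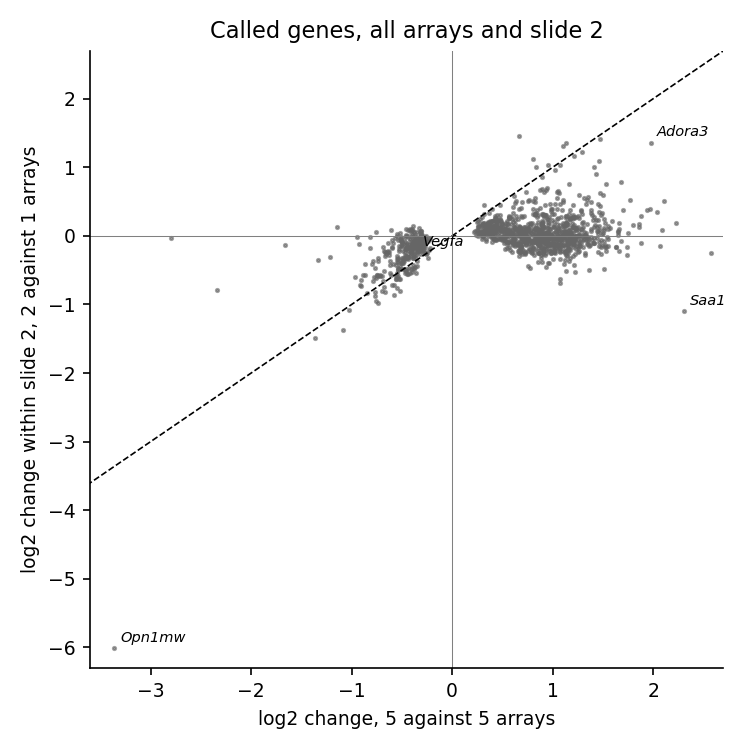
Log2 change of each called gene over all arrays (horizontal axis, 5 against 5) and within slide 2 (vertical axis, 2 against 1), with a dashed line of equal changes. The arrays of slide 2 enter both axes. Most genes called higher lie near 0 on the vertical axis, those called lower are mostly below 0, and Saa1 stands apart at −1.10 within slide 2, as does Opn1mw at the lower left, whose position is not exact because its probe was at background on the irradiated arrays.

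Within slide 2 itself, 0 of 20221 genes were higher and 12 lower with 4 Gy serum (0.0593%, adjusted p under 0.05 in the limma fit by group and slide, 225 higher and 416 lower at an unadjusted p under 0.05). The 4 with a gene symbol were Ankrd34a, Opn1mw, Bbs7, a gene of the ciliary BBSome, and the mucin gene Muc5ac, and only Opn1mw was also among the 1208. Ankrd34a was at −3.57, −3.36, −3.53 and −3.28 on control arrays 1 to 4, at −1.02 on control array 5 and between −3.68 and −3.47 on the 5 irradiated arrays. The difference was therefore a high value on control array 5 alone, while the irradiated arrays matched the other 4 control arrays.

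Signalling and growth genes are given by list, each to be read against the 5.97% of all genes that were called. Of 27 NF-kB and cytokine genes 1 rose and 1 fell (7.41%): Nfkbie, an inhibitor of NF-kB, by 0.88 ± 0.23 (adjusted p = 0.0314), and Csf1, the macrophage growth factor gene, by −0.34 ± 0.09 (adjusted p = 0.0275). Nfkbie was between −2.0 and −1.85 on slide 1, between −1.52 and −1.47 on slide 2 and between −0.68 and −0.59 on slide 3. Csf1 did not overlap, from 4.60 to 4.76 with control serum and from 4.16 to 4.51 with 4 Gy serum. Of 26 immediate early genes, the first genes switched on by serum, 0 passed the test in either direction, with a median change of −0.10. The groups did not overlap for 5 of them, each lower with 4 Gy serum (3.62% of all genes did so): Fos (0.17 to 0.42 against −0.16 to 0.10), Myc (2.02 to 2.33 against 1.78 to 1.99), Atf3, Zfp36 and Srf, with changes between −0.31 and −0.18 and adjusted p between 0.0941 and 0.563. Of 24 TGF-beta genes 2 fell (8.33%), Tgfb2 (−0.52), a ligand, and Ltbp1 (−0.32), which holds latent TGF-beta in the matrix, with changes of 0.04 and −0.01 within slide 2. Fn1, the fibronectin gene, was the single called member of 34 collagens and matrix genes, at 6.24 to 6.42 with control serum and 5.90 to 6.13 with 4 Gy serum (−0.34 ± 0.09, adjusted p = 0.0321, −0.15 within slide 2). Col1a1 (0.12), Acta2 (0.06), the cell cycle inhibitor gene Cdkn1a (0.02) and the proliferation marker gene Mki67 (−0.07) did not pass, and under scaling to the array median Acta2 and Cdkn1a were at −0.02 and −0.05. Other probes gave −0.06 and −0.09 for Col1a1 and −0.26 and −0.03 for Acta2, opposite in sign to the probes used.

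Those metabolic and protein turnover lists that had called members held between 1 and 3 each, against 5.97% of all genes. Of 37 hypoxia and glycolysis genes (8.11% called) 1 rose, Car9 (carbonic anhydrase 9, 0.68 ± 0.14, adjusted p = 0.0126), and 2 fell, Vegfa and Gpi1 (glucose phosphate isomerase, −0.28 ± 0.07, adjusted p = 0.0243). Of 21 fatty acid genes 3 rose (14.3%): Acacb (0.84), an acetyl-CoA carboxylase gene, Elovl5 (0.31), a fatty acid elongase gene, and Fads2 (0.30), a desaturase gene. Acacb was between −2.82 and −2.37 on slides 1 and 2 and between −1.37 and −1.31 on slide 3, so that both groups matched on slide 2. The other probe of Elovl5 gave −0.24, opposite to the probe used. Of 31 proteasome genes (6.45% called) Psmd7 (0.34) and Psmb6 (0.52) rose, and Psmb6 was between 3.94 and 4.09 on slides 1 and 2 and between 4.81 and 4.88 on slide 3. Of 49 ribosomal protein genes (4.08% called) Rps19 rose (0.44) and Rpl3 fell (−0.46). Of 18 glucocorticoid genes (11.1% called) Tat (tyrosine aminotransferase, 1.07) rose and the receptor gene Nr3c1 (−0.32) fell, where 3 other probes of Nr3c1 gave −0.15, −0.07 and 0.09. Of 35 interferon genes (5.71% called) Ifit2 (0.25) rose and Trim30a (−0.69) fell, and the other probe of Ifit2 gave −0.05. Single members were called in the lists for p53 targets (Ei24, 0.25, 3.23% of 31), DNA damage (Atm, 0.34, 3.23% of 31), mitosis (Cdc25b, 0.40, 2.94% of 34) and the circadian clock (Csnk1d, −0.30, 5% of 20), shares below that of all genes. Single members were also called for complement (C1qb, 0.60, 5.88% of 17), cold-inducible genes (Rbm3, 20% of 5) and telomerase genes (Terc, 8.33% of 12). The 2 called of 27 senescence-associated factors (7.41%) were Vegfa and Csf1, named above.

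The lists with 0 called members were DNA replication (37 tested), oxidative phosphorylation (42), NRF2 targets (31), cholesterol synthesis (25), unfolded protein response (24), matrix proteases (24), heat shock chaperones (20), the IGF axis (16), smooth muscle genes (14), core and linker histones (14) and the immediate early genes (26). Their medians lay between −0.15 and 0.06. At an adjusted p of at least 0.299 the examples Fkbp5, a glucocorticoid target, Hmgcs1, of cholesterol synthesis, and Cirbp, a cold-inducible gene, changed by 0.22, 0.18 and 0.00.

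Markers of other cell types were checked against the fibroblast label. All 18 fibroblast markers were well above background on all 10 arrays, with a summed linear level of 1545 to 1680 with control serum and 1450 to 1623 with 4 Gy serum, in multiples of the 75th percentile. Of 14 lymphocyte markers 8 were not well above background on any array, Cd3g, Cd79a and Ms4a1 among them, and 2 were so on all 10. Of 14 endothelial markers 9 were well above background on all 10 arrays and 3 (Pecam1, Tie1 and Cldn5) on none. Of 21 macrophage and myeloid markers with a probe 16 were well above background on all 10 arrays and 2 (Itgax and Spi1) on none. Of the 20 tested 3 rose (15%, against 5.97% of all genes), Cd14, Clec4d (0.61) and Lyz2 (0.55), and the list had a summed level of 4.74 to 7.39 with control serum and 6.81 to 8.40 with 4 Gy serum. Of 12 epithelial markers tested 3 rose (25%), Krt5 (0.92), Krt17 (0.71) and Cldn3 (0.79), of which 1 was called with normexp background correction (Krt5 then at 0.19, not called). With the slide as a random block 0 of the 12 were called, where 1 of all 20224 genes was. The summed levels of the list overlapped (2.01 to 2.45 and 2.11 to 2.39). Of other markers, 1 endothelial of 11 (Eng, 0.41), 1 neural of 11 (Rbfox3, 1.11), 1 erythroid of 6 (the globin gene Hbb-bt, 1.03) and 1 hepatocyte of 2 tested (Tat) rose, and 0 of 13 adipocyte, 3 lymphocyte and 2 pluripotent markers passed in limma. The skeletal muscle markers had 0 of 11 called and a median change of −0.09, with members from −0.57 to 1.21. Their summed level did not overlap, 4.59 to 6.77 against 7.84 to 11.2, but a sum of linear levels is set mostly by its brightest members. The muscle actin gene Acta1, singled out after its values were seen, was at 1.62, 1.44, 1.63, 1.67 and 2.34 with control serum and at 2.77, 2.53, 3.21, 3.22 and 3.04 with 4 Gy serum (1.21 ± 0.49, adjusted p = 0.148). In bulk samples fewer cells of a type and less RNA per cell cannot be told apart, and the part of such cells in the results was not tested.

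Genes that rose were concentrated among weak signals. In 5 equal classes of mean level, from the dimmest to the brightest, the share that rose was 10.2%, 6.35%, 3.46%, 1.58% and 0.915%, while the share that fell lay between 1.16% and 1.85%. Of the genes that rose 72.7% were well above background on all 10 arrays, and of those that fell 92.9%. Among all genes kept 18625 of 20226 were so, a share close to that of the genes that fell. Olfactory receptor genes, which encode odorant receptors of the nose, were called higher for 47 of the 99 that passed the filter and lower for 1, where 4.5% of all genes rose. Since 60 of the 99 were below background on at least 1 of the 10 arrays, and a gene that passes through the group where it is high has to differ, this count is a description only.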

How the data were processed

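The members and the gene lists were chosen with earlier results of these data known, and so were the tests. The deposited scanner files of the authors hold a processed intensity per spot after background subtraction, extracted with Agilent Feature Extraction 10.5.1.1 per the file headers (11.0 per the submitters' processing notes), and quality marks of another kind. The authors' deposited table holds log2 values, used as an alternative. From the files, spots marked as outliers or non-uniform (65 to 113 per array) were left out, spots of 1 probe were averaged, and levels are log2 of the result less its 75th percentile over the non-control probes of each array. A probe was kept where every array of 1 or more of the 4 groups had it well above background (26233 of 41174). RefSeq accessions of GRCm38.p6 named 24844 probes, and the brightest probe stood for its gene, which gave 20226 genes, unnamed probes standing for themselves. Of these, 20224 could be tested at 10 days.

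Groups were compared with limma 3.58.1 in R 4.3.3 (lmFit and eBayes, two-sided) in 1 fit of all 20 arrays with a mean per group, and slides with a mean per group and slide. The Benjamini-Hochberg adjustment ran over all genes, with 0.05 as the threshold. The script was tested on simulated data. "At least" folds set the brighter group against the lowest signal well above background. Counts of 41 lists were taken without a set test, and 4 scalings, filters, slide and replicate blocks, the deposited table and left-out arrays were tried. Named genes were the 10 highest and 10 lowest changes among genes above background on all 10 arrays, the 3 and 3 among the others, the 8 per direction with the smallest p, no overlap and at least 50% of the change within slide 2, the 2 with the smallest p of each list with at least 2 calls, and fixed examples. Samples were treated as unpaired. Deviations from the group means correlated at −0.07 to 0.19 between arrays of 1 replicate number. This cannot decide whether the numbers pair the samples, because the slides fall on different replicate numbers in the 2 groups. Identical values were held by 0 pairs of arrays. The number of arrays limits the precision.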

Additional observations from a re-analysis of the deposited data

Results flagged for a closer look

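Among the named genes, 150 groups of 5 arrays (4 where a spot was left out) were searched for a single array far from the others, and 7 were found, where chance gives about 1 in 20. In 5 of the 7, control array 5 was high. It was at −4.69 for Cyp4f18 (other control arrays −5.77 to −5.51), 0.27 for Foxh1 (−1.03 to −0.78), −3.29 for Olfr1153 (−4.94 to −4.79), −1.47 for Nfkbie (−2.0 to −1.85) and −4.31 for Tat (−5.40 to −5.14). This array is the control array of slide 2, and for each of these genes the irradiated arrays of that slide lay closer to it than to any other control array. Irradiated array 2 was high for Rbmxl2, at −3.26 (others −4.04 to −3.86), and control array 2 was low for Cd14, at −1.90 (others −1.55 to −1.42). The part of the slide in these values was not tested.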

How the results depend on the processing

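Main counts were 911 genes up and 297 down. Upward counts stayed within 1.5 times under the 4 other scalings (769 to 897), with marked spots kept, every probe for itself and a trend in eBayes, and under filters or none (611 to 914). Downward counts were 594 with median scaling, 547 with quantile normalisation and 134 without a filter. The authors' deposited table gave 1636 and 937, and the 10-day arrays alone 1647 and 929. With slide as a random block they were 0 and 1 (1666 genes at an unadjusted p under 0.05), and as a fixed block 0 and 12 (642). The replicate block on the 10-day arrays alone gave 1608 and 805. Chosen after seeing the data, leaving out slide 2 gave 2262 and 1492, and leaving out slide 3 gave 0 and 0 (709 unadjusted). Without single arrays the counts ran from 199 to 1374 upward and from 20 to 746 downward. In total they were 219, 224 and 319 without irradiated array 3, 4 or 5, and 2003 and 2109 without irradiated array 1 or 2. Without control array 1, 2, 3, 4 or 5 they were 540, 325, 510, 677 and 1441. The share that rose was 63.6% in the authors' deposited table.

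Within slide 2 the 10-day arrays alone gave 1 gene higher and 19 lower. Slide 3 against slide 2 gave 3179 higher and 2792 lower there, and 1416 lower with median scaling. For control array 5 against slide 1 they gave 909 and 120, median scaling 233 and 45, cyclic loess 262 and 11, and quantile normalisation 16 lower.

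With slide as a fixed block the changes repeat those within slide 2, on 1 control array, and are not a second check. Their sign was opposite for Saa1 (−1.10), Cyp4f18 (−0.27), Prl3b1 (−0.22), Tmem174 (−0.023), 1700019N19Rik (−0.16), Foxh1 (−0.13), Olfr1153 (−0.072), Dnajc2 (0.022), Npnt (0.079), Nfkbie (−0.039), Tgfb2 (0.044), Rpl3 (0.11), Acacb (−0.039), Tat (−0.16) and Trf (−0.058). It was so too for the uncalled Saa3 (−1.25), Lcn2 (−0.90), Mt1 (−0.053), Mt2 (−0.075), Mki67 (0.10), Col1a1 (−0.033), Il6 (−1.20) and Ccl2 (−0.68). All but Saa1, Il6 and Ccl2 were smaller than their SE within slide 2 (0.23 for Tmem174 and 0.27 for Acacb), so their sign is not settled. Il6 was −0.24 with the random block. Median scaling reversed Cdkn1a (−0.052), Acta2 (−0.017) and Cirbp (−0.072). Leaving out slide 3 reversed Cdkn1a (−0.10), Il6 (−0.20), Ccl2 (−0.031) and Cirbp (−0.023), and leaving out single arrays moved Cirbp to between −0.011 and 0.026 and Cdkn1a to between −0.0064 and 0.057. The 62 called named genes kept their sign in the 4 other scalings. Their calls were kept by 62 with quantile normalisation, 43 with normexp, 1 with the random block, 62 without slide 2 and 0 without slide 3. On the 10-day arrays alone 52 kept theirs, and Saa1, Pacs1, Olfr1410, Tgfb2, Rpl3, Acacb, Nr3c1, Trim30a, Cd14 and Psmb6 did not. Without irradiated array 3, 4 or 5 alone, 18, 18 and 24 of the 62 genes kept theirs. Besides the weak genes named above, Csf1, Acacb, Nr3c1, Trim30a (−0.26), Cd14 and Psmb6 lost their call with normexp, Elovl5, Ifit2, Cd14, Psmd7 and Psmb6 with median scaling, and Ltbp1 and Nr3c1 with cyclic loess. The cause of these changes was not tested.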
